A study of Mus musculus with 10 samples.

Results

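Transcripts of the corticosteroid receptors and of 8 genes that glucocorticoids induce were followed in the dentate gyrus, the granule-neuron field of the hippocampus, of 10 mice. The members were chosen by name from the gene table: the receptor genes Nr3c1 and Nr3c2, and the responsive genes Tsc22d3, Fkbp5, Sgk1, Zbtb16, Mt1, Plin4, Ddit4 and Errfi1. The table spells them in capitals (NR3C1, NR3C2, TSC22D3, FKBP5, SGK1, ZBTB16, MT1, PLIN4, DDIT4 and ERRFI1). They are 10 of 24982 rows, and all 10 passed the filter on low counts. The choice was made with their levels and covariation in view, so covariation among them is given as a description with no test.

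The animals were males of 10 weeks on a C57BL/6 background. Of these, 5 carried a global knockout of Fndc5 (KO), the gene whose membrane protein is the source of the secreted factor irisin, and 5 were wild type (WT). Each mouse gave 1 library of micro-dissected tissue, and no treatment is given in the labels. The sources used here do not say how the knockout allele was made, at what time of day the animals were killed or how they were handled.

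Corticosterone, the main glucocorticoid of mice, acts in the brain through 2 nuclear receptors. Nr3c2 encodes the mineralocorticoid receptor, which binds corticosterone with high affinity and is occupied at resting hormone levels, and Nr3c1 encodes the glucocorticoid receptor, which is engaged as the hormone climbs at the daily peak or under stress. The bound receptors enter the nucleus, bind paired half-sites in DNA and induce genes that include feedback inhibitors of the pathway. The dentate gyrus expresses both receptors, and sustained glucocorticoid exposure is known to lower Nr3c1 transcript levels in several cell types.

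Promoter windows are shown for Sgk1 and Tsc22d3 because they hold glucocorticoid response letters, and for Mt1 because it holds metal response letters and no glucocorticoid ones. Each spans 250 bases before to 50 after a transcript start in RefSeq (GRCm38.p6). Windows were read for 8 of the 10 members, 7 of them responsive genes, with 16 windows in all. The promoters of Nr3c1 and Zbtb16 were not searched. The first is 1 of the 6 start sites of Sgk1, at chr10:21993640-21993939 on the plus strand, and the capitals mark the palindromic glucocorticoid response element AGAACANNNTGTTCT, which begins 189 bases before the start site.

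Sgk1: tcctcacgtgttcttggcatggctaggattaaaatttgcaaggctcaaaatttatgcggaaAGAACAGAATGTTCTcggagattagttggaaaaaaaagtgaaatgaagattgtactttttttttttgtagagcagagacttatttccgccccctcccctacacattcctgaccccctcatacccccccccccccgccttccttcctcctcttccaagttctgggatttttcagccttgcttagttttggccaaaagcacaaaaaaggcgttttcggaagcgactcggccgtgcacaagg

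This element was in 1 of the 16 member windows and in 3 of the 32851 windows of all genes (0.00913%), read on both strands. The half-site TGTTCT alone, which is part of that element, was common: 4 member windows held it, against 19.0% of all windows. It is shown for Tsc22d3 at chrX:140600473-140600772 on the minus strand, with the half-site in capitals.

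Tsc22d3: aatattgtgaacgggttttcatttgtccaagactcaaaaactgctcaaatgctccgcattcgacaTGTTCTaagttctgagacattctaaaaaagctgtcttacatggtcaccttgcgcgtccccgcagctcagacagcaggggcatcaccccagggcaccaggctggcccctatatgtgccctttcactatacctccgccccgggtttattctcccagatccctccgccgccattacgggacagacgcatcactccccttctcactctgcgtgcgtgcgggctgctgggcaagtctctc

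The Mt1 window, at chr8:94178839-94179138 on the plus strand, held 3 metal response elements (TGCACNC or TGCGCNC, both strands), shown in capitals. Metallothionein genes respond to metals as well as to glucocorticoids. Those letters occurred in 4 of the 16 member windows (of Mt1, Nr3c2, Sgk1 and Ddit4) and in 25.7% of all windows.

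Mt1: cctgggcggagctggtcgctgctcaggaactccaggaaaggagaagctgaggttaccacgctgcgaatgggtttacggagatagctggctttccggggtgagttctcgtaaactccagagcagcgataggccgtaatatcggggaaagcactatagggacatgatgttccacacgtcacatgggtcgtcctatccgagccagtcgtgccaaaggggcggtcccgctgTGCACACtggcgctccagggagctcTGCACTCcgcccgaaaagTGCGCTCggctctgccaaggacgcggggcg

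The libraries, whose totals were scaled by TMM for all levels given here, held 26226375 to 34514373 counts in KO mice and 26963625 to 43802079 counts in WT mice. Fndc5 was at 45.4 to 56.7 counts per 1000000 (CPM) in KO mice and at 69.2 to 80.3 CPM in WT mice (log2 fold change -0.55, SE 0.057, edgeR adjusted p 0.000495). Markers of granule neurons (Prox1, Dsp, Calb1 and 6 more) summed to 2126 to 2307 CPM in KO mice and 1939 to 2292 CPM in WT mice. The choroid plexus markers Folr1, Clic6 and Kcnj13 reached at most 21 counts in any library.

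Nr3c1 had 70.2, 79.7, 68.7, 75.7 and 66.4 CPM in KO mice 1 to 5, against 65.5, 84.2, 76.6, 79.1 and 64.6 CPM in WT mice 1 to 5. Mouse 2 was the highest and mouse 5 the lowest of its genotype in both cases, and the groups overlapped. Nr3c1 occupies chromosome 18, 39410545 to 39519421 (GRCm38, minus strand). The means were 72.1 ± 5.46 CPM in KO mice and 74.0 ± 8.61 CPM in WT mice (SD, n = 5 each), a log2 fold change of -0.04 (SE 0.070, 95% interval -0.19 to 0.11, edgeR adjusted p 0.945).

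Nr3c2 (chromosome 8, 76899442 to 77245012, plus strand) had 260.2, 295.7, 271.2, 280.1 and 303.1 CPM in KO mice 1 to 5, against 260.9, 304.7, 290.1, 305.6 and 292.3 CPM in WT mice 1 to 5. Mouse 1 was the lowest of each genotype. Its means were 282.1 ± 17.5 CPM in KO mice and 290.7 ± 18.1 CPM in WT mice (SD, n = 5 each), a log2 fold change of -0.04 (SE 0.049, 95% interval -0.15 to 0.06, edgeR adjusted p 0.890). Its exons share 247 bases with the antisense RNA gene Gm10649, and the strand setting of the counting is not given in the sources used here.

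Each library held between 3.70 and 4.57 Nr3c2 reads per Nr3c1 read in KO mice and between 3.62 and 4.52 in WT mice. Mouse 5 had the highest ratio in both genotypes, 4.57 in the KO and 4.52 in the WT. The log2 ratio was 1.97 ± 0.131 in KO mice and 1.98 ± 0.122 in WT mice (SD, n = 5 each), a difference of -0.01 with an exact two-sided permutation p of 0.865, where 0.00794 is the smallest that 5 against 5 mice can give. Per base of exon, in transcripts per 1000000 (TPM), Nr3c2 was at 211.0 ± 13.7 TPM in KO mice and 217.5 ± 15.5 TPM in WT mice. On the same scale Nr3c1 was at 45.5 ± 3.82 TPM in KO mice and 46.7 ± 5.71 TPM in WT mice.

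Tsc22d3, which encodes the leucine zipper protein GILZ that mediates anti-inflammatory effects of glucocorticoids, had 57.1, 34.1, 54.2, 42.9 and 52.4 CPM in KO mice 1 to 5, against 65.5, 33.1, 36.5, 39.0 and 51.2 CPM in WT mice 1 to 5. Mouse 1 was the highest and mouse 2 the lowest of each genotype, and the highest library was 1.97 times the lowest. Tsc22d3 occupies chromosome X, 140539528 to 140600659 (minus strand). KO over WT it gave a log2 fold change of 0.10 (SE 0.16, 95% interval -0.25 to 0.44, edgeR adjusted p 0.934).

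Fkbp5, a co-chaperone that lowers the hormone affinity of the glucocorticoid receptor and so forms a feedback loop, had 115.0, 97.0, 121.3, 102.8 and 121.1 CPM in KO mice 1 to 5, against 113.0, 92.8, 101.8, 110.9 and 117.1 CPM in WT mice 1 to 5. Mouse 2 was again the lowest of each genotype. KO over WT, Fkbp5 gave a log2 fold change of 0.06 (SE 0.068, 95% interval -0.09 to 0.20, edgeR adjusted p 0.897). Fkbp5 occupies chromosome 17, 28399094 to 28517527 (minus strand).

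Sgk1, a kinase that regulates ion channels and transporters, had 79.5, 51.9, 66.2, 64.4 and 67.5 CPM in KO mice 1 to 5, against 80.3, 62.8, 55.3, 69.7 and 63.3 CPM in WT mice 1 to 5. Mouse 1 was the highest in each genotype, and the lowest libraries were KO mouse 2 and WT mouse 3. Sgk1 had a log2 fold change of -0.01 (SE 0.099, 95% interval -0.21 to 0.20, edgeR adjusted p 0.994). It occupies chromosome 10, 21882184 to 21999903 (plus strand), a span that contains the palindromic element printed above.

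Zbtb16, the transcription factor PLZF, had 192.6, 193.8, 230.7, 201.1 and 231.5 CPM in KO mice 1 to 5, against 226.5, 179.0, 202.6, 189.1 and 232.0 CPM in WT mice 1 to 5. Mouse 5 was the highest of each genotype. Zbtb16 had a log2 fold change of 0.03 (SE 0.072, edgeR adjusted p 0.957). Mt1, a metallothionein that binds zinc and copper, had 103.0, 89.1, 114.4, 100.6 and 97.9 CPM in KO mice 1 to 5, against 96.1, 82.4, 79.1, 97.1 and 116.7 CPM in WT mice 1 to 5. The low libraries of Mt1 were KO mouse 2 and WT mice 2 and 3. Mt1 had a log2 fold change of 0.10 (SE 0.087, edgeR adjusted p 0.858), and its level is uncertain because the similar gene Mt2 may share reads with it.

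Plin4, a lipid droplet coat protein, was the lowest member by level and varied most. It had 1.81, 0.591, 3.01, 1.15 and 4.96 CPM in KO mice 1 to 5, against 2.92, 0.698, 1.05, 2.36 and 5.31 CPM in WT mice 1 to 5. Mouse 2 was the lowest and mouse 5 the highest of both genotypes, with 18 counts in the lowest library and 143 in the highest. The highest level was 8.98 times the lowest. The genotype difference was -0.08 on the log2 scale (SE 0.49, edgeR adjusted p 0.987), and its 95% interval of -1.12 to 0.96 was the widest of the members. Its exons share 17 bases with Hdgfl2 on the other strand.

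Ddit4, an inhibitor of mTORC1 signalling also called REDD1, had 51.8, 47.4, 57.5, 53.4 and 49.2 CPM in KO mice 1 to 5, against 52.5, 46.2, 48.2, 48.8 and 43.4 CPM in WT mice 1 to 5. It had the smallest p of the members, with a log2 fold change of 0.12 (SE 0.058, 95% interval -0.01 to 0.24), an unadjusted p of 0.0592 and an edgeR adjusted p of 0.789, and the groups overlapped. Errfi1, a feedback inhibitor of the EGF receptor, had 44.6, 43.9, 52.1, 45.2 and 45.1 CPM in KO mice 1 to 5, against 49.6, 41.8, 44.1, 46.6 and 43.5 CPM in WT mice 1 to 5. KO mouse 3 was the highest library of both Ddit4 and Errfi1. Errfi1 had a log2 fold change of 0.03 (SE 0.056, edgeR adjusted p 0.934).

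**Figure D1:**
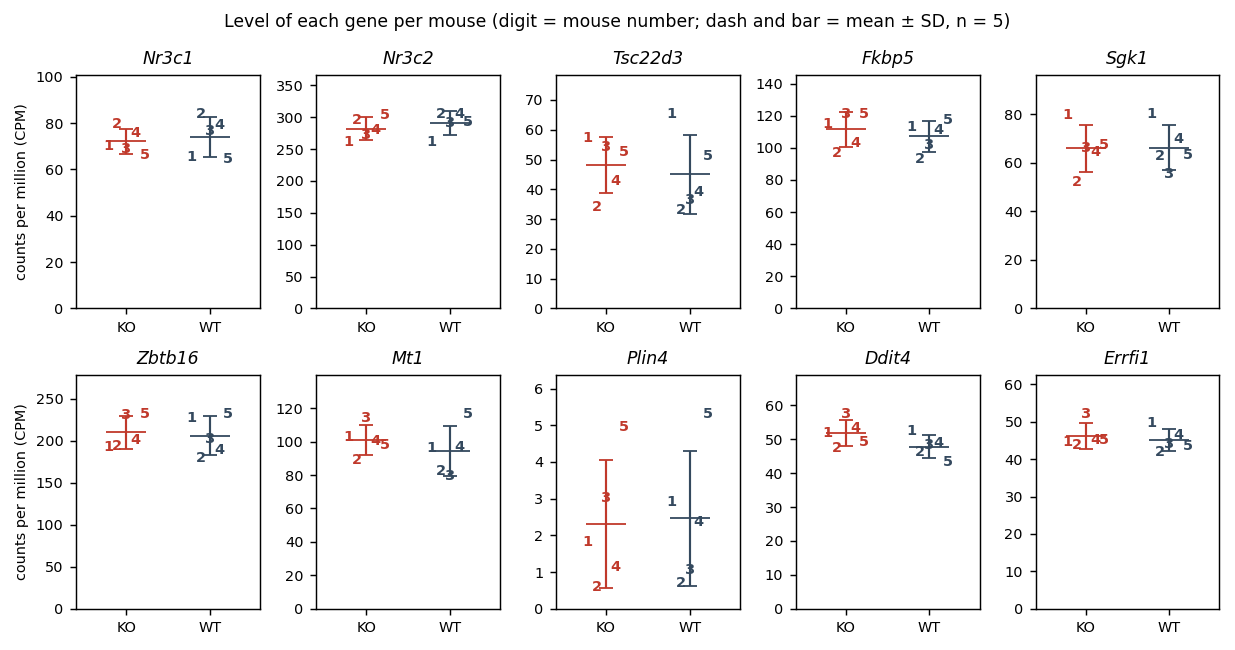
Level of each gene in CPM (vertical axis, from 0) in 5 KO and 5 WT mice (horizontal axis); each digit is the number of 1 mouse, the dash is the mean and the bar 1 SD. The genotypes overlap in every panel, and mouse 2 is the lowest of both genotypes for Tsc22d3, Fkbp5 and Plin4.

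Of the 10 members, 0 passed an adjusted p of 0.05 between KO and WT mice in edgeR, where 0.00673% of all 14867 tested genes passed, and 0 passed in DESeq2, where 0.0202% did. At an unadjusted p under 0.05 there were 0 members in edgeR, against 6.29% of all genes, and 0 in DESeq2, against 5.89% of all genes. The ranges of CPM in KO and WT mice were apart for 0 members, against 0.895% of all genes. The 8 responsive genes had positive log2 fold changes for 6 and negative ones for 2 (median 0.05), beside 7542 positive and 7325 negative values and a median of 0.0016 over all genes. Apart from Plin4, the 95% intervals of the members lay between -0.25 and 0.44 on the log2 scale.

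**Figure D2:**
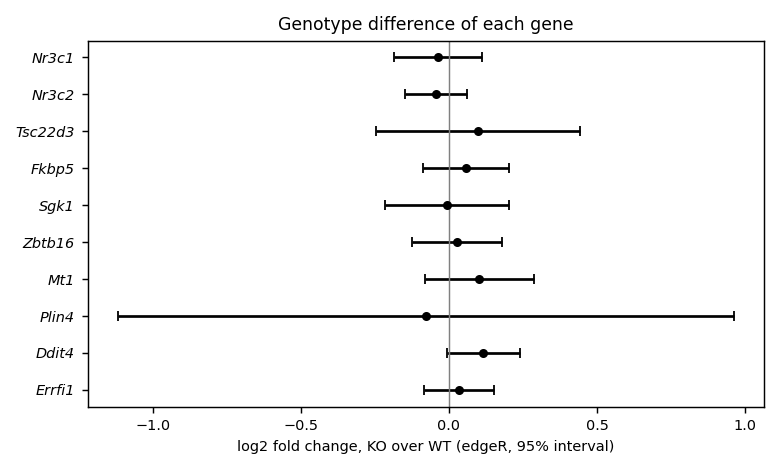
Log2 fold change of KO over WT for each gene (horizontal axis), with the 95% interval from edgeR as a bar. All 10 intervals include 0, and the interval of Plin4, from -1.12 to 0.96, is the widest.

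By level per base of exon, Mt1 stood first with 392.5 ± 34.3 TPM in KO mice and 366.2 ± 57.7 TPM in WT mice (SD, n = 5 each here and below). Nr3c2 and Zbtb16 came next. Zbtb16 had 192.4 ± 17.3 TPM in KO mice and 188.5 ± 20.1 TPM in WT mice, a range that overlapped that of Nr3c2 in both genotypes. Ddit4 followed at 143.1 ± 10.7 TPM in KO mice and 131.9 ± 8.42 TPM in WT mice. Sgk1, Errfi1, Fkbp5 and Tsc22d3 had mean levels of 53.7 to 65.1 TPM in KO mice and 50.1 to 65.4 TPM in WT mice, with ranges that overlapped between neighbours in this order. Nr3c1 came after them and overlapped Tsc22d3, and Plin4 was lowest, at 1.92 ± 1.44 TPM in KO mice and 2.07 ± 1.54 TPM in WT mice.

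The members differed between mice of 1 genotype more than most genes did. The SD of log2 CPM within genotype was 1.14 for Plin4, 0.357 for Tsc22d3, 0.210 for Sgk1 and 0.182 for Mt1. Among the 500 genes nearest in level, these stood at percentiles 100, 100, 99.2 and 99. Zbtb16 and Fkbp5 had SDs of 0.148 and 0.140 (percentiles 97.4 and 97), and Nr3c1 had 0.142 (percentile 94), where the neighbours' medians were 0.062 to 0.067. Ddit4, Nr3c2 and Errfi1 lay lower, with SDs of 0.104, 0.0911 and 0.0985 at percentiles 80.4, 79 and 76.2. The variance of the counts was 7.60 times that of Poisson counting for Errfi1 and 89.5 times for Tsc22d3, the lowest and highest of the members.

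The responsive genes moved together from mouse to mouse. With log2 CPM centred on each genotype's mean, all 28 pairs of the 8 genes had a positive Pearson's r over the 10 libraries, from 0.12 to 0.96, with a mean of 0.567. The closest pair was Fkbp5 and Plin4 (r = 0.96, Spearman's rho = 0.94, and r = 0.92 without the 2 libraries farthest from the median, KO2 and WT2). Ddit4 and Errfi1 formed a second close pair (r = 0.84, rho = 0.88, and r = 0.81 without KO3 and WT5). Against the mean of the other 7 genes, Tsc22d3 had r = 0.89, Fkbp5 0.89 and Plin4 0.81, while Ddit4 had the lowest value of 0.44.

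Sgk1 was close to Tsc22d3 (r = 0.80, rho = 0.78, and 0.58 without KO2 and WT1) but not to Zbtb16 (r = 0.21, rho = 0.10, and -0.17 without KO2 and WT1). Ddit4 had r of 0.12 to 0.29 with Plin4, Mt1, Zbtb16 and Fkbp5. The correlations share the 10 libraries and their scaling. Those of Ddit4 with Mt1 and Zbtb16 (0.14 and 0.18) were 0.85 and 0.83 once the 2 farthest libraries were left out (WT3 and WT5 for Mt1, KO5 and WT5 for Zbtb16). Others of Ddit4 fell. Without KO2 and WT2 its r was -0.36 with Plin4 (0.12 before) and -0.14 with Fkbp5 (0.29 before). Without KO2 and WT1 it was -0.05 with Tsc22d3 (0.44 before) and 0.10 with Sgk1 (0.52 before). After the correction for GC content and exon length given further on, the lowest of the 28 values was -0.14, between Mt1 and Ddit4, so the sign was not positive for every pair.

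**Figure D3:**
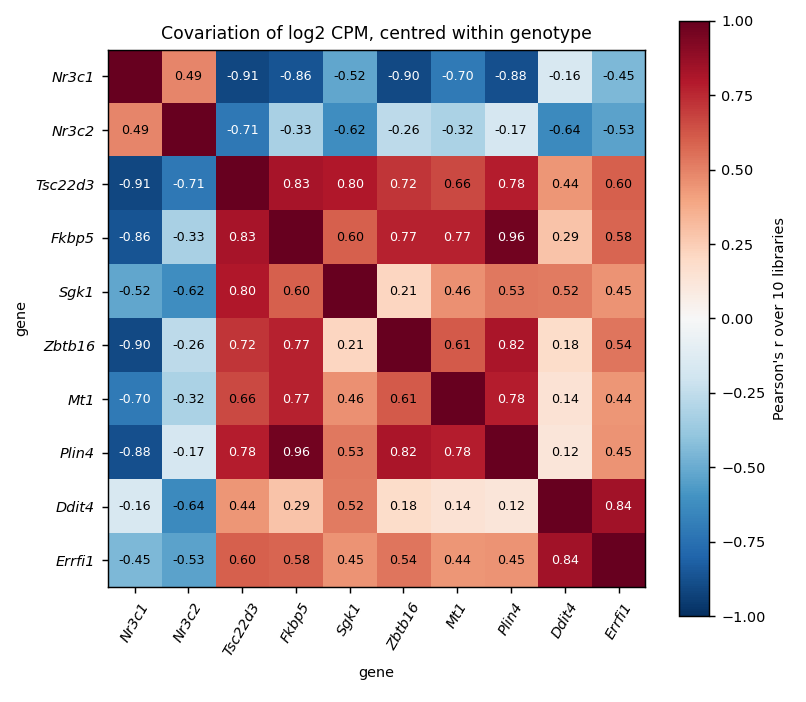
Pearson's r over 10 libraries between the log2 CPM of each pair of genes (both axes), centred within genotype; red is positive and blue negative. The lower right block of 8 responsive genes is positive throughout, and both receptor rows are negative against it.

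Nr3c1 ran opposite to its responsive genes. Its r was negative with all 8, with a median of -0.78. The strongest were Tsc22d3 (r = -0.91, rho = -0.84, and -0.93 without WT2 and WT5), Zbtb16 (r = -0.90, rho = -0.85, and -0.83 without them), Plin4 (r = -0.88, rho = -0.84, and -0.80) and Fkbp5 (r = -0.86, rho = -0.88, and -0.79). Across all mice the widest gap in Nr3c1 lay between 70.2 and 75.7 CPM, with 5 libraries on each side, too few for a correlation on either side alone.

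Nr3c2 was also negative with all 8 genes, with a median r of -0.43. Its r with Sgk1 was -0.62 (rho = -0.38) and 0.02 without KO1 and WT1, so that relation rests on those mice. With Tsc22d3 it was -0.71 (rho = -0.64) and -0.35 without them. The receptors had r = 0.49 with each other (rho = 0.36, and 0.53 without WT2 and WT5).

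**Figure D4:**
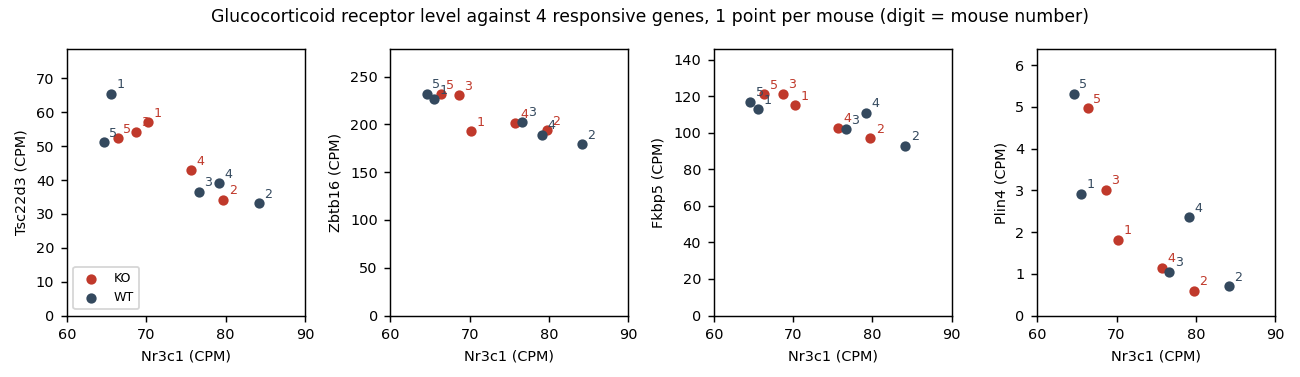
Nr3c1 (horizontal axis, CPM, from 60 to 90) against Tsc22d3, Zbtb16, Fkbp5 and Plin4 (vertical axes, CPM, from 0), with 1 point per mouse and its number; KO is red and WT dark blue. KO2 and WT2, which hold the most Nr3c1, are the lowest 2 libraries for Tsc22d3, Fkbp5 and Plin4.

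The mean of the 8 responsive genes, each standardised after centring, ranked the mice within genotype. It was 0.18, -1.23, 0.98, -0.27 and 0.34 SD units in KO mice 1 to 5, against 1.06, -1.05, -0.63, 0.12 and 0.49 in WT mice 1 to 5. Mouse 2 was lowest in both genotypes, and the highest were KO mouse 3 and WT mouse 1. The labels do not say what the mouse number stands for.

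**Figure D5:**
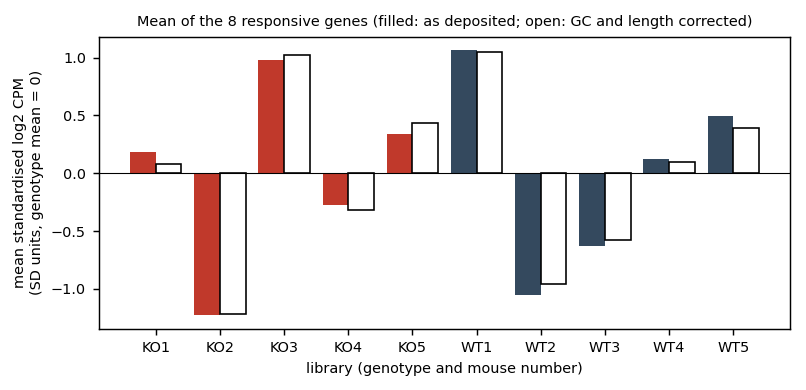
Mean standardised log2 CPM of the 8 responsive genes (vertical axis, SD units, genotype mean 0) in each library (horizontal axis); filled bars are red for KO and dark blue for WT, and open bars are after correction for GC content and exon length. KO2 at -1.23 and WT2 at -1.05 are the lowest of their genotypes, and each bar keeps its sign after the correction.

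This mean followed properties of the whole library, and their part in the covariation was not tested. It had r = 0.90 (rho = 0.87) over the 10 libraries with the first principal component of all genes, which held 20.6% of the within-genotype variance. It had r = 0.91 (rho = 0.92) with each library's correlation, over genes, of centred log2 CPM with gene GC content. Its r was -0.55 with the same measure for exon length, but -0.05 with total counts and -0.24 with the share of the ribosomal RNA precursor. Of 14857 other genes, 18.5% had r of at least 0.5 with it and 18.7% had r of -0.5 or less. After spline correction of each library for GC content and exon length, chosen after seeing the data, the mean pairwise r of the 8 genes was 0.535, and Nr3c1 had a median r of -0.68 with them. The corrected responsive mean still had r = 0.89 with the first principal component and 0.87 with the GC measure, both taken before correction. The same correction put r at 0.93 for Fkbp5 with Plin4, -0.85 for Nr3c1 with Tsc22d3 and 0.15 for Nr3c1 with Ddit4.

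Of the 8 endothelial markers, 4 (50%) had r of -0.5 or less with the responsive mean, beside 18.7% of all other genes, and of the 5 mural markers 1 (20%) did. The endothelial markers summed to 179.0 to 211.5 CPM in KO mice and 181.5 to 217.6 CPM in WT mice, and their mean had r = -0.69 (rho = -0.66) with it. The 4 were Pecam1 (r = -0.82), Cldn5 (-0.80), Flt1 (-0.80) and Cdh5 (-0.55), while Slco1a4 was at -0.07 and Ly6a at 0.42. The mural markers summed to 127.9 to 150.4 CPM in KO mice and 132.7 to 148.9 CPM in WT mice (r = -0.56, rho = -0.47), with Pdgfrb at -0.84 and the other 4 (Rgs5, Kcnj8, Vtn and Acta2) between -0.32 and -0.06. Without their 2 farthest libraries Rgs5, Kcnj8 and Acta2 had positive r of 0.34, 0.56 and 0.31. Astrocyte markers had r = -0.49, microglia markers -0.34, granule neuron markers -0.26, oligodendrocyte markers -0.21 and choroid plexus markers -0.08. The share with r of -0.5 or less was also 50% for the 8 astrocyte and 6 microglia markers, and 44.4% for the 9 granule neuron markers. Of those 9, 22.2% had r of at least 0.5. After GC and length correction the share at -0.5 or less was 50% for endothelial, 44.4% for granule neuron, 16.7% for microglia and 12.5% for astrocyte markers. It was then 11.5% over all other genes. Of the granule neuron markers 33.3% then had r of at least 0.5, beside 18.8% of all other genes, and their mean had r = 0.04. The means for markers of the neighbouring pyramidal fields were positive, with r = 0.48 (rho = 0.47) for those of CA1 and r = 0.38 (rho = 0.28) for those of CA2. Single markers ran from -0.04 (Pou3f1) to 0.65 (Fibcd1) in CA1 and from -0.34 (Pcp4) to 0.72 (Cacng5) in CA2. With GC and length correction the means had r = 0.22 for CA1 and 0.39 for CA2. In bulk tissue, fewer cells of a type and less RNA per cell cannot be told apart, and the part of cell composition was not tested.

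The 14857 genes outside the members were ranked by r with the responsive mean, passing over predicted genes and pseudogenes by their symbols (Gm and a number, Rik, -ps). The first was Map3k6, a MAP kinase kinase kinase that glucocorticoids are known to induce (r = 0.99, rho = 0.98, 0.98 without its 2 farthest libraries, and 0.98 after GC and length correction). It ranged from 2.10 to 5.02 CPM in KO mice and from 2.44 to 4.96 CPM in WT mice. The next 9 in this ranking were Rap1gap, Tmem59l, Entpd6, Fmnl1, Ndufa13, Bloc1s1, Frat2, Gtpbp6 and Spns2, with r of 0.94 to 0.96. Their SDs within genotype were 0.0533 to 0.195, against 0.456 for Map3k6. After GC and length correction Entpd6, an ectonucleotidase, had r = 0.96 and Spns2, a sphingosine 1-phosphate exporter, 0.93. The Rap1 inhibitor gene Rap1gap had 0.62 and the complex I subunit gene Ndufa13 had 0.66.

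A further 30 genes known from other tissues or cells to respond to glucocorticoids, Map3k6 among them, were read as a list. Of these, 16 (53.3%) had r of at least 0.5 with the responsive mean and 1 had r of -0.5 or less, beside the 18.5% and 18.7% of all other genes. The list was chosen with earlier results of these data known, so these shares are a description and no test. The metallothionein gene Mt2, which may share reads with the member Mt1, had r = 0.91 (rho = 0.88). The glucose transporter gene Slc2a1 had 0.88 (rho = 0.83) and Hif3a, a hypoxia-inducible factor subunit, 0.87 (rho = 0.85). The transcription factor gene Klf15 had 0.81 (rho = 0.84) and Nfkbia, the inhibitor of NF-kappaB, 0.81 (rho = 0.76). Pdk4, a kinase that restrains pyruvate dehydrogenase, ran the other way at -0.73 (rho = -0.79), and Dusp1, a MAP kinase phosphatase, was at -0.19. Between genotypes 19 of the 30 had positive and 11 negative log2 fold changes (median 0.04). The list had 0 genes past the adjusted threshold in edgeR and 0 in DESeq2, and 1 (3.33%) at an unadjusted p under 0.05, beside the 6.29% of all genes. That gene was Agt, the angiotensin precursor, with 17.5 ± 2.10 CPM in KO mice and 14.9 ± 1.66 CPM in WT mice (SD, n = 5 each, log2 fold change 0.23, SE 0.088, edgeR adjusted p 0.788).

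Genes that hold or assist the receptor complex were lower in value in KO mice for 10 of 12 (median -0.08), with 0 past the adjusted threshold in edgeR and in DESeq2 and 3 (25%) at an unadjusted p under 0.05. Over all genes 7325 of 14867 were lower, and 6.29% had an unadjusted p under 0.05. The 3 were Hsp90aa1, the receptor-holding chaperone (422.3 ± 14.0 CPM in KO mice and 463.3 ± 35.0 CPM in WT mice, log2 fold change -0.13, SE 0.047), Dnaja1 (-0.14, SE 0.049) and Hspa4 (-0.10, SE 0.038), each with an edgeR adjusted p of 0.788. The mean of the 12 had r = -0.22 with the responsive mean. The 11 receptor coregulators were split 5 to 6 (median -9.87e-05), with 0 at either threshold in edgeR. Among them Ncor1, a corepressor of nuclear receptors, had r = -0.78 with the responsive mean and Ncoa3, a coactivator, 0.57.

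Of 7 genes of local steroid supply, 5 were tested and 0 passed either threshold in edgeR or the adjusted one in DESeq2. Hsd11b1, the enzyme that regenerates active corticosterone, was at 36.2 ± 1.61 CPM in KO mice and 34.9 ± 2.98 CPM in WT mice (SD, n = 5 each, log2 fold change 0.05, SE 0.058). Hsd11b2, which inactivates corticosterone, and Akr1c18 were below the filter, with at most 8 counts in any library. Of the 16 clock genes, 0 passed the adjusted threshold and 1 (6.25%) had an unadjusted p under 0.05, near the 6.29% of all genes. The mean of the clock genes had r = 0.60 (rho = 0.53) with the responsive mean. Of the 16, 5 (31.25%) had r of at least 0.5 with it and 18.75% had r of -0.5 or less, beside 18.5% and 18.7% of all other genes. Nr1d1 was at 0.77 (rho = 0.73), Dbp at 0.74 (rho = 0.72) and Arntl at -0.63 (rho = -0.72). Npas2 was at 0.58, Nr1d2 at 0.01, Tef at -0.10, Per3 at -0.17 and Hlf at -0.56. Dbp, a clock output that peaks late in the light phase in many tissues, was at 45.5 ± 9.21 CPM in KO mice and 39.7 ± 7.88 CPM in WT mice (log2 fold change 0.20, SE 0.13, edgeR adjusted p 0.806). The part of the time of killing in the covariation was not tested.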

How the data were processed

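Per the labels' protocols, a stranded mRNA kit was used on 500 ng of RNA per mouse, and 75 bases were read from 1 end. The values the authors deposited are raw counts by gene symbol, with no normalization. The submitters' processing notes name STAR 2.5.1b, Cufflinks 2.2.1 and mm10; no source used here gives the counting settings. Symbols, positions, exon lengths and GC content came from GENCODE M21 (GRCm38) and promoter windows from RefSeq.

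Genes were filtered with filterByExpr (14867 left), scaled by TMM and tested with edgeR 4.0.16 (glmQLFit, glmQLFTest) in R 4.3.3, with Benjamini-Hochberg adjustment over all genes. Each SE was derived from the log2 fold change and F. Log2 CPM used a prior count of 2 and was centred within genotype for correlations. TPM used exon-union length. The code was tested on simulated data. Alternatives were DESeq2 1.42.0, other scalings, no filter, the mouse number as a block and each library left out. The members and lists were chosen with earlier results of these data known. The naming rule takes all members, up to 4 genes per list by smallest p and the 10 other genes most like the responsive mean. For those 10, predicted genes and pseudogenes were passed over. Other genes were named after their values were seen. Each library counts as 1 replicate because the titles number the mice. The lowest chi-square over degrees of freedom of 2 libraries of a genotype was 4.64, which shows only that they differed beyond counting noise.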

Additional observations from a re-analysis of the deposited data

Results flagged for a closer look

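Each gene and the receptor ratio were searched, within each genotype, for 1 mouse standing apart from the other 4. That was 22 searches with 2 finds, where chance gives about 1.1. Errfi1 was at 52.1 CPM in KO mouse 3, with the other KO mice at 43.9 to 45.2 CPM. The ratio of Nr3c2 to Nr3c1 was 4.57 in KO mouse 5, with the other KO mice at 3.70 to 3.95.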

How the results depend on the processing

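The count of members past the threshold was 0 in all 16 alternatives. The count of genes was 1 in the main analysis, 3 with DESeq2, 8 with the replicate block and 1 to 3 when 1 library was omitted (3 without WT mouse 1, 2 without KO mouse 2); the cause was not tested. Deviations of same-numbered mice correlated at 0.209, 0.204, 0.108, 0.00901 and 0.0282 for mice 1 to 5. The labels state no pairing, and mice were left unpaired in the main analysis. The receptor ratio had a difference of -0.01 and p = 0.75 with the replicate block (exact sign flips), and -0.067 to 0.039 when 1 library was omitted. The mean pairwise r of the responsive genes was 0.644 with the replicate block, 0.501 by Spearman's rho and 0.463 (without KO mouse 2) to 0.690 (without WT mouse 5). Signs near 0 turned for Sgk1 (0.0040 with upper-quartile scaling, -0.083 to 0.074 with 1 omitted) and Nr3c1 (0.0079 after GC and length correction, -0.081 to 0.012). They also turned with 1 omitted for Plin4 (-0.52 to 0.39), Zbtb16 (-0.017 to 0.075) and Errfi1 (-0.014 to 0.071). At an unadjusted p under 0.05, 378 genes were higher and 557 lower in KO mice, against 546 higher and 405 lower with upper-quartile scaling. Plin4 had 18 to 143 counts per library, with a variance 40.0 times that of counting.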
